A study of Mus musculus with 48 samples.

Results

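The 41 genes described here are interferon response genes, that is, genes whose transcripts rise when a cell senses type I or type II interferon. They were chosen by symbol from a list of named genes, with earlier results of these data known, and all 41 were found among the 15041 genes of the mouse liver expression table. All 41 passed the filter on low values (at least 0.5 FPKM in at least 3 livers), which left 13765 genes tested. FPKM counts reads per length of transcript, scaled to the depth of the library, so levels of different genes can be compared per length.

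The livers came from wild-type C57BL/6 mice and from mice labelled as SHP knockout, with ages not given in the labels. SHP is the orphan nuclear receptor encoded by Nr0b2. Mice of either genotype label received a liquid diet for 10 days, with 5% ethanol or with maltose in its place. At 9am on day 11 they were gavaged with ethanol at 5 g per kg body weight or with maltose dextrin of equal calories at 9 g per kg. Livers were then collected at 6pm, midnight, 6am and noon, with 3 mice in each of the 16 groups of genotype label, treatment and time. No group went without the liquid diet and the gavage, so the controls are fed and gavaged mice. Reads recovered from the FPKM steps numbered between 9605636 and 19780144 per library. Nr0b2 was read in all livers, at 22.1 ± 9.60 FPKM (SD, n = 12) in wild-type controls and 21.8 ± 9.53 FPKM (n = 12) in knockout-labelled controls. Its level therefore did not separate the genotype labels, and the knockout is called a label throughout. The hepatocyte markers summed to at least 43028 FPKM in every liver.

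Type I interferons signal through a receptor whose kinases activate STAT2, which joins IRF9 in a complex that binds the interferon-stimulated response element (ISRE) of target promoters. Type II interferon acts through the gamma-activated site (GAS), and it is the main inducer of IRF1 and of the immunity-related GTPases and guanylate-binding proteins. In the liver, hepatocytes as well as Kupffer cells, the resident macrophages, can carry both responses, and a low constitutive signal keeps many of these genes transcribed without infection.

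Promoters of 5 of the genes are printed here because they show the range of sequence behind genes that behaved alike or differently in the ethanol-fed livers. Ifit1 and Oas3 fell with ethanol and hold ISRE letters, and Irgm1 holds them and fell under 1 genotype label. Ifi44 fell and holds no exact match, and the Irf1 window printed holds a GAS match, while Irf1 did not pass the test. Another RefSeq window of Irf1 (chr11:53770223-53770522), not printed, holds no match to either set of letters. The sequences are RefSeq's on GRCm38.p6, written 5′ to 3′ on the strand of the gene from 250 bases before to 50 after its start, and capitals mark matches on either strand to the ISRE letters (GAAA, then any 2 bases, then GAAA) or the GAS letters (TTC, then any 3 bases, then GAA).
Ifit1 (chr19:34640639-34640938, plus strand): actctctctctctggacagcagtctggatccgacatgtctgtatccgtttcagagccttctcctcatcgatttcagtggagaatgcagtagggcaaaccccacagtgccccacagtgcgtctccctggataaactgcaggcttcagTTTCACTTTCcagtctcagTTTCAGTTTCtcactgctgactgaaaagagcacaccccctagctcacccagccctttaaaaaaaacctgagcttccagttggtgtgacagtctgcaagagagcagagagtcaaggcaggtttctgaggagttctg
Oas3 (chr5:120777610-120777909, minus strand): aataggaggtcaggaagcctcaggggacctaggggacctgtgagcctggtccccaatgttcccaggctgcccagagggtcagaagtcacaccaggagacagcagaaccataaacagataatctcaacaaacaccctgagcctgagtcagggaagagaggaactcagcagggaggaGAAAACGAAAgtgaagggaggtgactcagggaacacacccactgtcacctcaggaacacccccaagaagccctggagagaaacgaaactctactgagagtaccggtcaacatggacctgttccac
Irgm1 (chr11:48871371-48871670, minus strand): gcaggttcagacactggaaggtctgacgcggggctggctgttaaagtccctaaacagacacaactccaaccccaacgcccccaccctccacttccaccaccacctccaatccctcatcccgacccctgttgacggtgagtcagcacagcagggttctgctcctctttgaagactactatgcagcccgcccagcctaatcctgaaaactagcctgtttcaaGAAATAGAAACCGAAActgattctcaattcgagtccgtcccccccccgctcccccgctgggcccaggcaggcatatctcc
Ifi44 (chr3:151749861-151750160, minus strand): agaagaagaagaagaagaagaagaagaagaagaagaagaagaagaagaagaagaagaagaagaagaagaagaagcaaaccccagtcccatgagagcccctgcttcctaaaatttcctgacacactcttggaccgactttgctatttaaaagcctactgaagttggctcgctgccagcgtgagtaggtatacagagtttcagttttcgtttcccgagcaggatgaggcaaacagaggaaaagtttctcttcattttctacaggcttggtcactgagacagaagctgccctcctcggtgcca
Irf1 (chr11:53769764-53770063, plus strand): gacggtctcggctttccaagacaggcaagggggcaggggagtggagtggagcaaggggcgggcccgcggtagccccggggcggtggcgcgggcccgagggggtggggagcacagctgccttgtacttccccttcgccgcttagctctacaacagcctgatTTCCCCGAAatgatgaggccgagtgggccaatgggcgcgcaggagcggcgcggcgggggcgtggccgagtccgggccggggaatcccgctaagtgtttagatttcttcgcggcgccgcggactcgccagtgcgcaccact

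The RefSeq table held a promoter for 30 of the 41 genes. The ISRE letters were found in 18 of these 30 genes (60%), against 1079 of all 27025 genes with a promoter of the same length (3.99%). The GAS letters were found in 9 of 30 (30%), against 9.55% of all genes. The matches are descriptions of these windows and not binding sites, and neighbouring ISRE matches can overlap, as in Irgm1, where they begin 30 and 24 bases before the start.

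Ethanol lowered most of these genes in both genotype labels. Averaged over the 4 times, 28 of 41 were lower in wild-type ethanol-fed livers than in their controls and none was higher, where 13.7% of all tested genes were lower. Under the knockout label 29 of 41 were lower and none higher, against 14.8% of all tested genes. Over all tested genes 16.6% were higher in wild type and 16.8% under the knockout label. These calls are from limma across all tested genes at a Benjamini-Hochberg adjusted p under 0.05, and fold changes are on the scale of log2(FPKM × scale factor + 0.5), which understates changes of low genes. The median change of the 41 genes was -0.42 in wild type and -0.56 under the knockout label, beside 0.01 and 0.00 for all genes. In each genotype label 39 of the 41 estimates were negative. Without the 6pm livers 21 genes were lower in wild type and 1, Lgals3bp, was higher, and 25 were lower under the knockout label. In whole-liver RNA, fewer cells of a type and less RNA per cell cannot be told apart, which holds for every result here.

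The same test called 25 of the genes lower under both labels. Ifi47, Iigp1 and Gbp7 were called in wild type alone, and Isg15, Stat2, Irgm1 and Gbp6 under the knockout label alone, which is no test of a difference between labels. The 9 genes called in neither were Irf1, Mx2, Ifi35, Igtp, Irgm2, Gbp2, Zbp1, Ifitm3 and Lgals3bp. Every estimate above 0 belonged to genes among these 9.

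**Figure D1:**
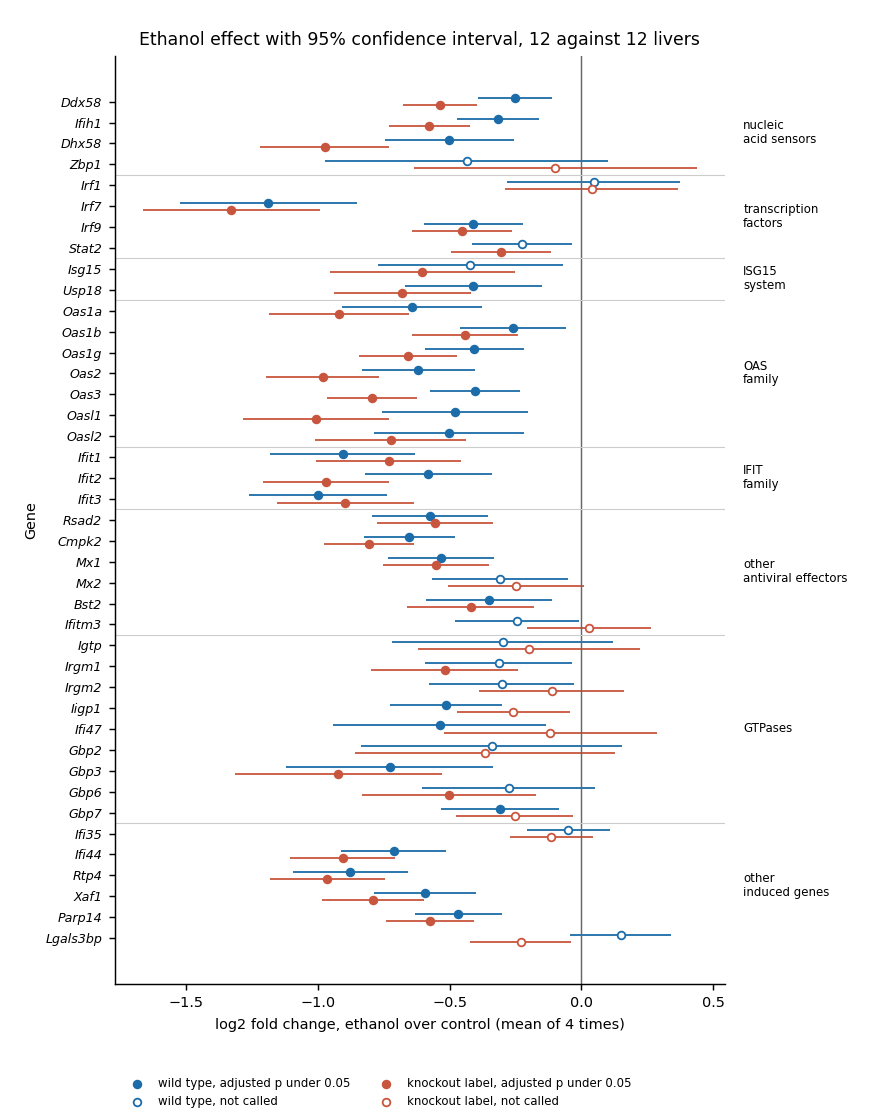
Ethanol effect on each of the 41 genes as log2 fold change (x axis, mean of the 4 times, 12 against 12 livers) with 95% confidence intervals, wild type in blue and knockout label in red, grouped by role; filled points were called. The intervals of the OAS and IFIT families lie below 0 in both labels, while those of Irf1 and Igtp span 0.

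Among the sensors of viral nucleic acid, the 3 RNA helicases fell under both labels. Ddx58 (RIG-I), which recognises RNA with a 5′ triphosphate, spanned 4.67 to 7.11 FPKM in wild-type controls (median 5.83) and 3.04 to 6.19 FPKM in wild-type ethanol livers (median 5.00), a change of -0.25 ± 0.07 (SE, adjusted p = 0.00512). Ddx58 ran from 6.09 to 9.23 FPKM in knockout-labelled controls and from 2.08 to 5.87 FPKM in ethanol livers, so the 12 ethanol livers all lay below the 12 controls. Its change there was -0.54 ± 0.07 (adjusted p = 4.04e-07). Ifih1 (MDA5), the sensor of long double-stranded RNA, changed by -0.32 in wild type and -0.58 under the knockout label. Dhx58 (LGP2), which modulates both, changed by -0.50 and -0.97. Zbp1, a sensor of Z-form nucleic acid, was not called under either label, and its knockout-labelled controls spanned 0.999 to 17.3 FPKM, the highest of them a liver collected at 6pm.

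Of the transcription factors, Irf7 had the largest fall of the 41 genes under both labels on the scale of log2(FPKM × scale factor + 0.5). As a ratio of mean FPKM, control over ethanol, Irf7 stood at 2.29 in wild type and 3.26 under the knockout label, below Oas3 (2.49 and 4.37) and Ifi44 (2.40 and 3.72), both low in level, and in wild type also below Mx1 (2.32). Irf7 is the factor that amplifies type I interferon production. In wild-type controls it ranged from 7.60 to 16.9 FPKM (median 12.1), and in wild-type ethanol livers from 3.05 to 10.9 FPKM (median 4.59). Of the 12 wild-type ethanol livers, 9 lay below every control. For knockout-labelled mice the range was 11.2 to 43.7 FPKM in controls (median 18.5) and 3.88 to 10.6 FPKM with ethanol (median 6.06), with no overlap of the groups. The Irf7 change was -1.19 ± 0.17 in wild type (adjusted p = 1.14e-06) and -1.33 ± 0.17 under the knockout label (adjusted p = 2.24e-07).

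Irf9, the DNA-binding part of the complex on the ISRE, fell by 0.41 and 0.45 on the log2 scale in wild type and under the knockout label. Stat2, its partner, changed by -0.22 in wild type (adjusted p = 0.0644) and fell under the knockout label by 0.31 (adjusted p = 0.0113). Irf1, the factor most tied to type II interferon, had estimates of 0.05 ± 0.16 and 0.04 ± 0.16 and was at 8.41 ± 1.39 FPKM in wild-type controls (SD, n = 12) and 8.77 ± 2.18 FPKM in wild-type ethanol livers. The 95% interval of its wild-type change ran from -0.28 to 0.37.

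**Figure D2:**
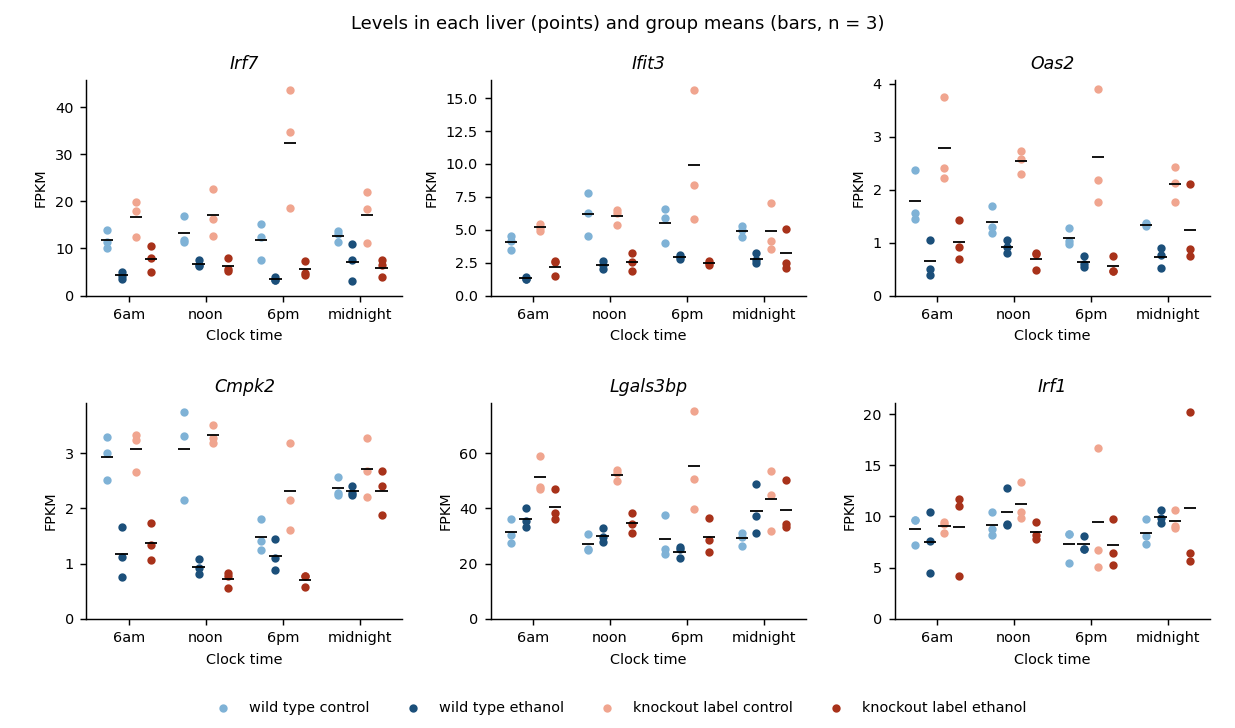
FPKM (linear y axis from 0) of 6 genes in each of the 48 livers at the 4 clock times, by genotype label and treatment; points are livers and bars group means of 3. Irf7, Ifit3 and Oas2 have lower means in the ethanol groups. Treatments overlap for Cmpk2 at midnight and, in wild type, at 6pm, and the groups of Irf1 overlap.

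Isg15 encodes a ubiquitin-like protein that is joined to other proteins after interferon, and Usp18 removes it and also restrains the type I receptor. Isg15 ranged from 5.68 to 12.4 FPKM in wild-type controls (median 8.94) and from 2.06 to 12.2 FPKM in wild-type ethanol livers (median 7.03), and its change of -0.42 ± 0.17 did not pass (adjusted p = 0.0611). Knockout-labelled mice ranged from 6.75 to 27.9 FPKM in controls (median 10.7) and from 3.27 to 9.30 FPKM with ethanol (median 6.36), a fall of -0.60 ± 0.17 (adjusted p = 0.00713). The groups overlapped under both labels. Usp18 fell by 0.41 in wild type and by 0.68 under the knockout label.

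All 7 genes of the 2′-5′-oligoadenylate synthetase (OAS) family were lower under both labels, although the wild-type call of Oas1b (adjusted p = 0.0432) was lost in 14 of the 48 fits that left out 1 liver and, like that of Oasl1, without the 6pm livers. These enzymes and enzyme-like proteins sense double-stranded RNA, and the active ones make the messenger that switches on RNase L. The family's changes ran from -0.64 to -0.26 in wild type (median -0.48) and from -1.01 to -0.44 under the knockout label (median -0.80). Oas2 lay between 0.972 and 2.37 FPKM in wild-type controls (median 1.33) and between 0.389 and 1.05 FPKM in wild-type ethanol livers (median 0.760). Oas2 lay between 1.77 and 3.90 FPKM in knockout-labelled controls and between 0.461 and 2.10 FPKM in their ethanol livers, and 11 of its 12 ethanol livers were below every control. Its change was -0.62 ± 0.11 in wild type (adjusted p = 2.87e-05) and -0.98 ± 0.11 under the knockout label (adjusted p = 2.54e-08).

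Oas3, the synthetase most needed for RNase L activation in human cells, had the lowest mean level of the 41 genes, 0.367 FPKM over the 48 livers. It ranged from 0.200 to 0.700 FPKM in wild-type controls (median 0.309) and from 0.0502 to 0.248 FPKM in wild-type ethanol livers (median 0.153). The knockout-labelled livers ranged from 0.418 to 1.43 FPKM in controls (median 0.684) and from 0.0397 to 0.328 FPKM with ethanol (median 0.164), with no overlap. The Oas3 change was -0.40 ± 0.08 for wild type (adjusted p = 0.000367) and -0.80 ± 0.08 for the knockout label (adjusted p = 1.9e-08). Oas1a, an active synthetase, changed by -0.64 and -0.92, and Oasl1, a family member in mice that restrains Irf7 translation, by -0.48 and -1.01. Oas1b carries a premature stop in C57BL/6 mice, and its transcript changed by -0.26 and -0.44.

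The 3 IFIT genes, whose proteins bind viral RNA and block its translation, fell under both labels. Ifit1 ranged from 2.45 to 5.65 FPKM in wild-type controls (median 3.52) and from 0.909 to 2.94 FPKM in wild-type ethanol livers (median 1.68), and 11 of the 12 ethanol livers lay below every control. In mice with the knockout label it ranged from 2.08 to 9.80 FPKM in controls (median 3.80) and from 0.708 to 3.25 FPKM with ethanol (median 1.72). The Ifit1 change was -0.91 ± 0.14 in wild type (adjusted p = 3.63e-06) and, with the knockout label, -0.73 ± 0.14 (adjusted p = 9.13e-05). Ifit3 separated the wild-type groups without overlap, with 3.45 to 7.77 FPKM in controls (median 4.78) and 1.24 to 3.23 FPKM with ethanol (median 2.53). Its knockout-labelled controls lay between 3.51 and 15.6 FPKM (median 5.63) and the ethanol livers between 1.46 and 5.08 FPKM (median 2.51). The Ifit3 change was -1.0 ± 0.13 (adjusted p = 2.64e-07) and -0.90 ± 0.13 (adjusted p = 2.24e-06). Ifit2 changed by -0.58 and -0.97. The genes lie together on chromosome 19 of GRCm38, with Ifit1 at chr19:34640871-34650009 and Ifit3 at chr19:34583531-34588731, and reads may be shared between near-identical copies such as Ifit3 and its neighbour Ifit3b.

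Of the other antiviral effectors, 4 of 6 were lower under each label. Cmpk2, a mitochondrial nucleotide kinase, and Rsad2 (viperin), an enzyme that makes a chain-terminating nucleotide, are neighbours on chromosome 12 with starts 12752 bases apart on opposite strands. Cmpk2 ranged from 1.24 to 3.74 FPKM in wild-type controls (median 2.39) and from 0.762 to 2.41 FPKM in wild-type ethanol livers (median 1.11). Under the knockout label it ranged from 1.60 to 3.51 FPKM in controls (median 3.18) and from 0.551 to 2.67 FPKM with ethanol (median 0.953). The groups overlapped under both labels, and the change was -0.65 ± 0.08 (adjusted p = 3.19e-07) and -0.81 ± 0.08 (adjusted p = 1.8e-08). Rsad2 changed by -0.58 and -0.56. Mx1, a dynamin-like GTPase whose protein is not functional in C57BL/6 mice, changed by -0.53 and -0.55, and Bst2 (tetherin), which holds budding virus at the cell surface, by -0.35 and -0.42. Ifitm3, which blocks viral entry, had the highest mean level of the 41 genes, 380 FPKM, and its estimates of -0.24 and 0.03 were not called.

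The GTPases induced mainly by type II interferon were less uniform. Of the 9, 4 were lower in wild type and 3 under the knockout label. Iigp1, an immunity-related GTPase that attacks the vacuoles of intracellular parasites, ranged from 62.4 to 151 FPKM in wild-type controls (median 102) and from 44.9 to 93.3 FPKM with ethanol (median 71.1), and it fell by 0.51 ± 0.11 (adjusted p = 0.000291). In knockout-labelled mice Iigp1 ranged from 64.9 to 181 FPKM in controls (median 81.6) and from 46.4 to 83.1 FPKM with ethanol (median 60.7), a change of -0.26 ± 0.11 that did not pass (adjusted p = 0.0582). The difference between these changes of Iigp1, 0.26 ± 0.15, was not called (adjusted p = 0.314), but was called without the 6pm livers, at 0.57 ± 0.15 (adjusted p = 0.0225).

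Irgm1, a regulator of the other immunity-related GTPases, ranged from 7.97 to 14.5 FPKM in wild-type controls (median 12.2) and from 5.85 to 13.7 FPKM with ethanol (median 9.78), an overlap with a change of -0.31 ± 0.14 (adjusted p = 0.0803). In knockout-labelled mice Irgm1 ranged from 11.0 to 24.4 FPKM in controls (median 13.7) and from 4.11 to 16.5 FPKM with ethanol (median 7.62), and it fell by 0.52 ± 0.14 (adjusted p = 0.00386). Gbp2, a guanylate-binding protein that helps lyse pathogen vacuoles, ranged from 1.19 to 4.15 FPKM in wild-type controls (median 2.38) and from 0.888 to 3.19 FPKM with ethanol (median 1.94). Its knockout-labelled controls spanned 2.10 to 18.6 FPKM (median 3.22) and the ethanol livers 1.01 to 13.2 FPKM (median 1.97). Gbp2 was called in neither label (-0.34 ± 0.24 and -0.37 ± 0.24, adjusted p = 0.311 and 0.263). Gbp3 fell by 0.73 in wild type and by 0.92 under the knockout label. Igtp and Irgm2 overlap on the same strand of chromosome 11, so their reads may be split between them. The gene listed as Gbp6 in the deposited table carries an identifier (ENSMUSG00000079362) that GENCODE M21 names Gm43302, a locus on chromosome 5 that overlaps both Gbp6 and Gbp10 on the same strand. Its values are therefore those of this locus as the authors named it, and reads may be shared with its neighbours.

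Among the remaining induced genes, Ifi44, Rtp4, Xaf1 and Parp14 were lower under both labels. Rtp4, a chaperone-like protein that also restrains interferon responses in mice, ranged from 7.10 to 12.4 FPKM in wild-type controls (median 10.1) and from 2.71 to 7.33 FPKM with ethanol (median 5.22), with 11 of 12 ethanol livers below every control. With the knockout label, Rtp4 ranged from 8.80 to 25.0 FPKM in controls (median 11.6) and from 3.69 to 8.99 FPKM with ethanol (median 5.08). The Rtp4 change was -0.88 ± 0.11 in wild type (adjusted p = 1.16e-07) and -0.96 ± 0.11 under the knockout label (adjusted p = 4.1e-08). Rtp4 overlaps Masp1 on the other strand, as Irf7 does Phrf1 and Dhx58 its antisense gene Dhx58os, and the reads of such pairs cannot be told apart with an unstranded kit.

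Ifi44, a cytoplasmic protein of uncertain role, ranged from 0.536 to 1.67 FPKM in wild-type controls (median 1.02) and from 0.197 to 0.824 FPKM with ethanol (median 0.367). Under the knockout label it ranged from 0.799 to 2.96 FPKM in controls (median 1.02) and from 0.116 to 0.756 FPKM with ethanol (median 0.298), with no overlap. The Ifi44 change was -0.71 ± 0.10 (adjusted p = 8.83e-07) and -0.91 ± 0.10 (adjusted p = 2.54e-08). Lgals3bp, a secreted glycoprotein, ranged from 23.6 to 37.7 FPKM in wild-type controls (median 28.7) and from 21.9 to 48.8 FPKM with ethanol (median 32.0). Its estimates were 0.15 ± 0.09 in wild type and -0.23 ± 0.09 under the knockout label, and neither passed. Without the 6pm livers the wild-type estimate of Lgals3bp was 0.31 ± 0.09 and was called higher (adjusted p = 0.00919).

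**Figure D3:**
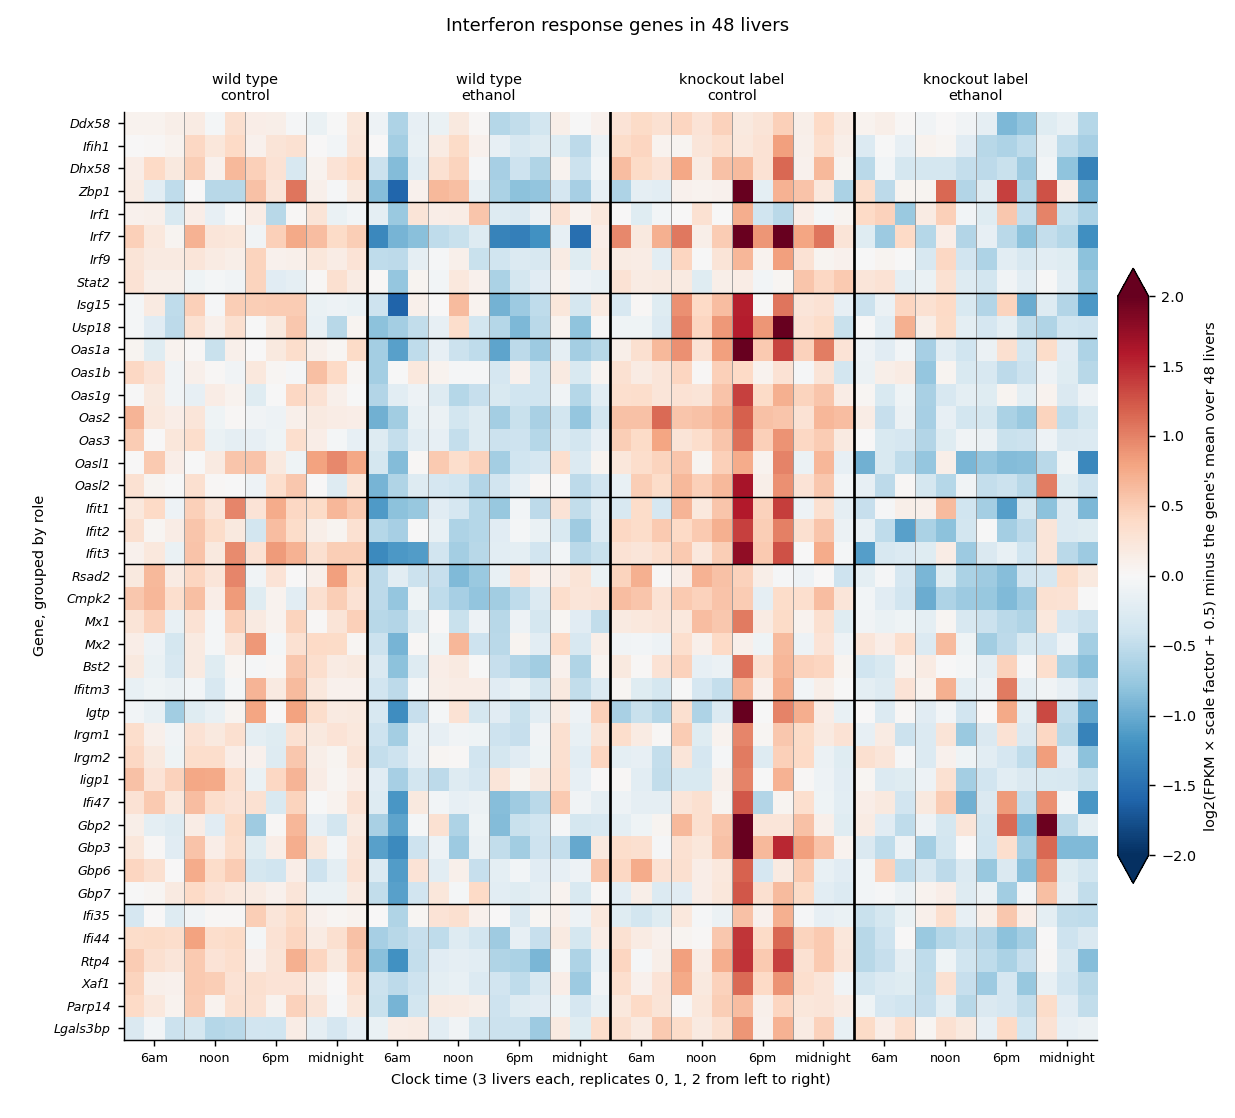
Level of each of the 41 genes (rows, grouped by role) in each of the 48 livers (columns) as log2 deviation from the gene's mean, red above and blue below. Blue predominates in both ethanol blocks, and replicates 0 and 2 of the knockout-labelled controls of 6pm are red across nearly all rows.

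Genes with ISRE letters in their promoter were not the only ones that fell. Of the 18 genes with a match, 11 were lower in wild type and 13 under the knockout label, and of the 12 genes with a promoter and no match, 9 and 8 were lower. Of the 9 genes with GAS letters (Bst2, Gbp7, Ifi35, Ifit2, Ifitm3, Igtp, Irf1, Irgm2 and Oas1a), 4 were lower in wild type and 3 under the knockout label, and of the 21 with a promoter and no GAS letters, 16 and 18 were lower. No difference between these classes was tested.

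In the test of the difference between the 2 labels' ethanol effects, Oas3 alone of the 41 genes was called, at -0.39 ± 0.12 (knockout label minus wild type, adjusted p = 0.0358). That is 1 gene of 41, where 7.98% of all tested genes were called. Of the 41, 8 had an unadjusted p under 0.05, as did 3168 of the 13765 tested genes. Oas3 passed the filter on low values mainly through the knockout-labelled controls. Its wild-type controls had a median of 0.309 FPKM, and its ethanol livers reached at most 0.248 FPKM in wild type and 0.328 FPKM under the knockout label. The next 3 by adjusted p were Ddx58 (-0.28 ± 0.10, adjusted p = 0.0656), Lgals3bp (-0.38 ± 0.13, adjusted p = 0.0711) and Dhx58 (-0.47 ± 0.17, adjusted p = 0.0786), none of them called. Without the 6pm livers the difference was called for Lgals3bp, at -0.42 ± 0.12 (adjusted p = 0.0433), and for Iigp1, as given above. The Oas3 call was lost with a pseudocount of 0.1 FPKM (adjusted p = 0.109), with voom on the recovered reads (adjusted p = 0.249), without 2 high control livers of 6pm described below (adjusted p = 0.118), without all 6pm livers (adjusted p = 0.165) and in 17 of the 48 fits that left out 1 liver.

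In control livers, 10 of the 41 genes were higher under the knockout label than in wild type and 1 was lower, where 15.4% of all tested genes were higher. The 10 were Lgals3bp, Oas1a, Oas2, Oas3, Oas1g, Oasl2, Usp18, Irf7, Ifit2 and Ddx58, and 5 of the 7 OAS genes were among them. Oas1a lay between 0.738 and 1.58 FPKM in wild-type controls (median 1.26) and between 1.34 and 6.87 FPKM in knockout-labelled controls (median 2.15), a difference of 0.68 ± 0.13 (adjusted p = 0.000185). Lgals3bp, given above for wild type, lay between 31.8 and 75.5 FPKM in knockout-labelled controls (median 50.5), a difference of 0.63 ± 0.09 (adjusted p = 5.69e-06). Oas2 was higher by 0.54 ± 0.11 (adjusted p = 0.00023) and Oas3 by 0.46 ± 0.08 (adjusted p = 8.16e-05). Oas3 passed the filter on low values mainly through these knockout-labelled controls, where it is high. Iigp1 was lower, by -0.36 ± 0.11 (adjusted p = 0.00947).

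In ethanol-fed livers 3 of the 41 genes differed between the labels, against 28.3% of all tested genes. Oas1a was higher under the knockout label by 0.40 ± 0.13 (adjusted p = 0.0224) and Lgals3bp by 0.25 ± 0.09 (adjusted p = 0.044), and Oasl1 was lower by -0.55 ± 0.14 (adjusted p = 0.00291). These comparisons between labels moved with the scaling. With library totals alone, the median of all genes shifted to 0.11 in controls and -0.08 in ethanol livers, and 17 genes were called higher and 0 lower in controls, while Oas1a and Lgals3bp were no longer called in ethanol livers. Both calls in ethanol livers were also lost without the 6pm livers (adjusted p = 0.109 and 0.162), and in 1 and 11 of the 48 fits that left out 1 liver. Over all genes the split in controls was 2124 higher and 2333 lower, and 4135 higher and 812 lower with library totals alone. The ethanol effect under the knockout label also shifted, with a median of all genes of -0.20 and 542 genes higher and 6759 lower in place of 2308 and 2038, and the 41 genes' median was then -0.77.

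The number of genes called with ethanol differed among the 4 times, which is no test of a change in the effect. All mice were gavaged at 9am, so clock time cannot be told apart from hours since the gavage in any result by time. In wild type 19 of 41 genes were lower at 6pm (8.65% of all tested genes), 3 at midnight (4.21%), 16 at 6am (4.66%) and 8 at noon (3.04%). With the knockout label, 27 were lower at 6pm (3.75%), 10 at midnight (5.29%), 8 at 6am (3.55%) and 18 at noon (9.69%). No gene was called higher at any time under either label. The median change in wild type was -0.57 at 6pm, -0.32 at midnight, -0.61 at 6am and -0.30 at noon, and under the knockout label -1.0, -0.49, -0.32 and -0.59. Irf7 in wild type changed by -1.69 at 6pm, -1.01 at midnight, -1.27 at 6am and -0.79 at noon, the last not called.

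With 3 livers a group, leaving out 1 liver moved 7 of these 8 counts by over 1.5 times. In wild type the 6pm count of 19 became 8 without control replicate 2, and 8, 12 and 9 without ethanol replicates 0, 1 and 2. The 6am count of 16 became 9 without control replicate 0 and 10 without ethanol replicate 1, and the noon count of 8 became 5 without control replicate 0 or ethanol replicate 1 or 2. The midnight count of 3 moved between 0 and 5. With the knockout label, the 6am count of 8 became 4 and 3 without control replicates 1 and 2, and 5 and 2 without ethanol replicates 0 and 2. The noon count of 18 became 11 without ethanol replicate 0. The midnight count of 10 became 6, 2 and 6 without control replicates 0, 1 and 2, and 17, 5 and 1 without ethanol replicates 0, 1 and 2. The 6pm count under the knockout label stayed between 23 and 30 when 1 liver was left out.

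**Figure D4:**
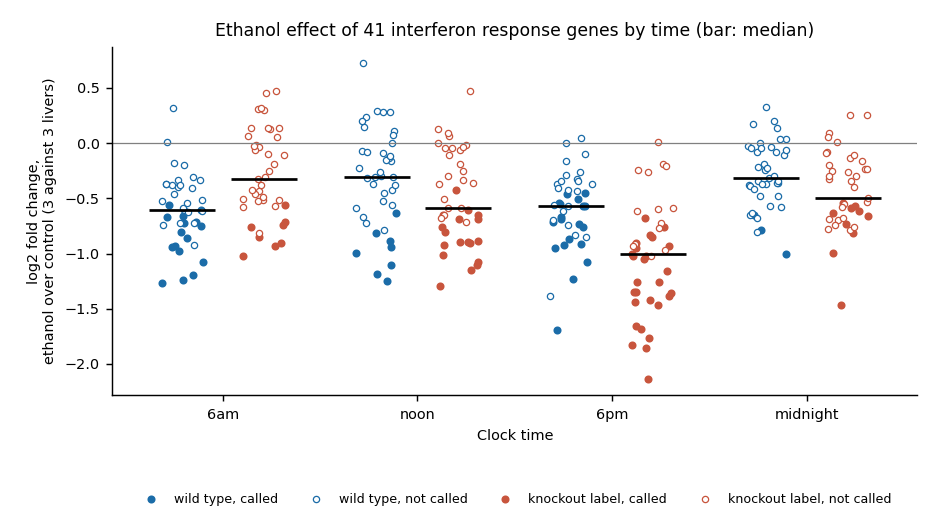
Ethanol effect of each of the 41 genes as log2 fold change (y axis, 3 against 3 livers) at each clock time, wild type in blue and knockout label in red; filled points were called and bars are medians. The knockout-label genes at 6pm have the lowest median, -1.0.

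A test of whether the ethanol effect changed with time called 3 of the 41 genes in wild type (10.6% of all tested genes) and 6 under the knockout label (10.9%). Cmpk2 and Rsad2 were called under both labels. In wild type Cmpk2 changed by -1.18 ± 0.17 at noon and -0.98 ± 0.17 at 6am, and by -0.37 at 6pm and -0.09 at midnight (time dependence adjusted p = 0.00592). Its wild-type controls read 1.24, 1.81 and 1.40 FPKM at 6pm and 3.32, 2.15 and 3.74 FPKM at noon, while the ethanol livers read 0.881, 1.10 and 1.44 FPKM at 6pm, 2.25, 2.28 and 2.41 FPKM at midnight and 1.08, 0.914 and 0.817 FPKM at noon. At midnight the wild-type controls of Cmpk2 read 2.24, 2.56 and 2.27 FPKM, so the groups overlapped there and were apart at noon.

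Rsad2, its divergent neighbour, had wild-type estimates of -1.24 ± 0.22 at noon and 0.00 ± 0.22 at 6pm (time dependence adjusted p = 0.028). Rsad2 read 2.67, 2.18 and 3.89 FPKM in the noon controls and 1.04, 0.645 and 0.793 FPKM in the noon ethanol livers. Iigp1 was called in wild type (adjusted p = 0.0441), with -0.99 at noon and -0.86 at 6am but -0.16 at 6pm and -0.04 at midnight. Its wild-type controls read 151, 143 and 103 FPKM at noon and the ethanol livers 53.0, 64.5 and 62.7 FPKM.

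With the knockout label, the 6 were Usp18 (adjusted p = 0.00239), Ifit1 (0.00775), Cmpk2 (0.0123), Ifi44 (0.0139), Rsad2 (0.0163) and Gbp7 (0.0372). Usp18 changed by -1.83 ± 0.26 at 6pm and 0.31 ± 0.26 at 6am. Its knockout-labelled controls read 19.8, 11.1 and 20.9 FPKM at 6pm and 5.52, 5.96 and 5.12 FPKM at 6am, and the ethanol livers 3.80, 3.65 and 3.27 FPKM and 5.57, 4.27 and 7.94 FPKM. The controls were thus high at 6pm and the ethanol livers were not. Ifit1 changed by -1.85 ± 0.27 at 6pm and -0.02 at 6am, where controls read 2.08, 3.97 and 2.19 FPKM and ethanol livers 1.73, 2.29 and 2.39 FPKM. Without 1 liver the wild-type count of 3 became 1 (control 6pm replicate 0, ethanol 6pm replicates 1 and 2, ethanol noon replicates 1 and 2). The knockout-label count of 6 became 14 without control 6pm replicate 1, and 10 without ethanol midnight replicate 0, ethanol noon replicate 2 or wild-type ethanol 6am replicate 1.

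Levels within a treatment varied with clock time for few of the genes in wild-type controls. Only Cmpk2 was called there (1 of 41, against 8.34% of all tested genes). Of the 41, 3 had an unadjusted p under 0.05, as did 3059 of the 13765 tested genes. In wild-type ethanol livers 10 were called (20.3%), among them Cmpk2, Ddx58, Parp14, Rsad2 and Ifit3. In knockout-labelled controls 9 were called (12.7%), with Usp18 lowest in adjusted p (0.00011), and in knockout-labelled ethanol livers 7 were called (38.2%), with Cmpk2 lowest (7.28e-05). The share of the 41 genes was below that of all genes in wild-type controls and in knockout-labelled ethanol livers, and above it in the other two arms. Without 1 liver the count in wild-type ethanol livers was 4 (6am replicate 1), 6 (6pm replicate 0, noon replicate 1) or 5 (6pm replicate 1, noon replicates 0 and 2), and in knockout-labelled ethanol livers 4 (midnight replicate 2). In wild-type controls it was 0 without replicate 0 or 2 of 6pm, and 2 without replicate 1 of 6pm from either arm with the knockout label or replicate 1 of the wild-type ethanol livers of 6am. In knockout-labelled controls it was 2, 20 and 1 without replicates 0, 1 and 2 of 6pm.

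Among the knockout-labelled controls of 6pm, 2 livers stood apart for these genes. Replicate 0 lay above the mean of each of the 41 genes and was the highest of the 48 livers for 26 of them, with a mean deviation of 1.16 on the log2 scale. Replicate 2 was highest for 8 genes, with a mean deviation of 0.76, and replicate 1 had 0.19. Replicate 0 read 43.7 FPKM of Irf7, 18.6 FPKM of Gbp2 and 27.9 FPKM of Isg15, where replicate 1 read 18.6, 3.34 and 8.53 FPKM. Over the 12 livers of each arm, the mean deviation of the 41 genes was 0.17 ± 0.11 in wild-type controls (SD), -0.29 ± 0.24 in wild-type ethanol livers, 0.34 ± 0.32 in knockout-labelled controls and -0.22 ± 0.23 in knockout-labelled ethanol livers.

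Without both of these livers the knockout-label count at 6pm went from 27 to 8 genes, with a lone control liver assumed to vary like the other groups. The count averaged over the 4 times went from 29 to 26, losing Isg15, Bst2 and Gbp6. In the comparison of labels in controls, 7 genes stayed higher and Irf7, Oasl2 and Ifit2 were lost. The time dependence called 3 genes in place of 6, and time of day in the knockout-labelled controls 1 in place of 9.

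**Figure D5:**
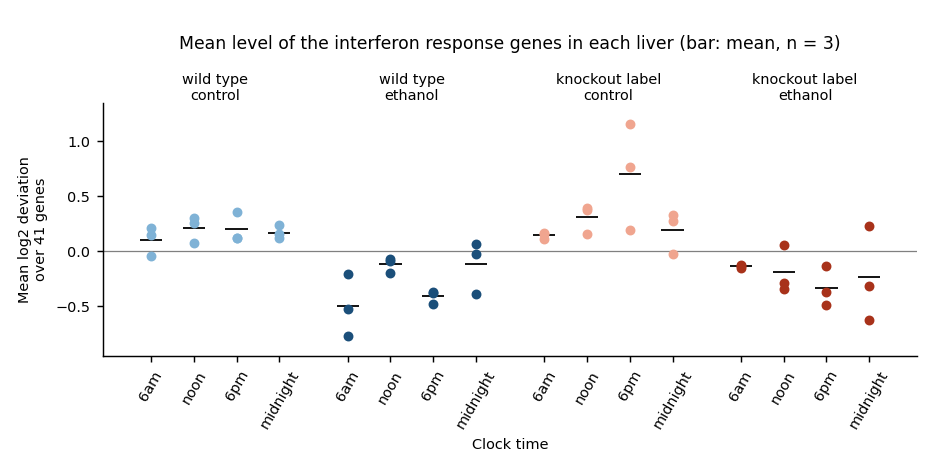
Mean log2 deviation over the 41 genes (y axis) in each of the 48 livers, by genotype label, treatment and clock time; bars are means of 3. Replicates 0 and 2 of the knockout-labelled controls of 6pm lie at 1.16 and 0.76, and the 12 wild-type ethanol livers lie between -0.77 and 0.06.

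Markers of other cells moved with these genes in part. Of 12 measured Kupffer cell markers, 6 were lower and 1 higher with ethanol in wild type, 3 were lower and 1 higher with ethanol under the knockout label, and 9 were higher in knockout-labelled than in wild-type controls, where 13.7%, 14.8% and 15.4% of all tested genes were lower, lower and higher in turn. In ethanol livers 11 of the 12 were higher under the knockout label, where 1730 of the 13765 tested genes were higher (914 with library totals alone). The Kupffer cell markers summed to 197 to 535 FPKM in wild-type controls, 154 to 609 FPKM in wild-type ethanol livers, 415 to 1345 FPKM in knockout-labelled controls and 142 to 953 FPKM in knockout-labelled ethanol livers. None of the Kupffer cell markers was below 0.5 FPKM in every liver, and the liver with 1345 FPKM was replicate 0 of the knockout-labelled controls of 6pm, where replicates 1 and 2 summed to 469 and 476 FPKM. Replicate 2, high in the interferon response genes, was thus not high in this sum. In the same comparison of controls, 6 of 10 stellate cell markers and 4 of 10 monocyte and neutrophil markers were higher under the knockout label. The part of these cells in the results was not tested.

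Of 16 tested lymphocyte markers, 4 were lower with ethanol under each label, beside 13.7% and 14.8% of all tested genes. Their sums ran from 6.33 to 28.9 FPKM and from 2.58 to 17.2 FPKM in wild-type controls and ethanol livers, and from 11.0 to 38.7 FPKM and from 1.89 to 35.2 FPKM under the knockout label. The medians of these sums were 18.6 and 4.46 FPKM in wild-type controls and ethanol livers, and 24.2 and 3.25 FPKM under the knockout label. Of 6 tested dendritic cell markers, 1 was lower with ethanol in wild type and 4 under the knockout label, and the defining markers Flt3 and Xcr1 stayed under 0.5 FPKM in every liver and were at 0 in some. The dendritic cell marker sums were 2.47 to 4.06 FPKM and 1.69 to 3.20 FPKM in wild-type controls and ethanol livers, and 3.08 to 8.11 FPKM and 1.58 to 256 FPKM under the knockout label, where 248 FPKM of the highest sum was Klk1 alone. Acute phase genes, the liver's inflammatory secretory response, went the other way under the knockout label, with 16 of 22 higher and none lower with ethanol, where 16.8% of all tested genes were higher. In wild type 2 of 22 were higher and 3 lower, near or under the shares of all tested genes (16.6% and 13.7%). The acute phase sums spread widely, from 9781 to 77240 FPKM in wild-type controls (median 12261) and 10085 to 23018 FPKM with ethanol (median 14405). Under the knockout label they ran from 9839 to 27913 FPKM in controls (median 11745) and 11037 to 1.15e+05 FPKM with ethanol (median 25123). The part of these cells and of the acute phase in the results was not tested.

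Other genes of the pathway were counted in the same way. Of 76 tested interferon-induced genes outside the 41, 39 were lower and 1 higher with ethanol in wild type, and 41 were lower and 2 higher under the knockout label, with a median change of -0.33 in each, where 13.7% and 14.8% of all tested genes were lower. Eif2ak2 (PKR), the kinase that halts translation on double-stranded RNA, fell by 0.32 and 0.65, and Cxcl9, a chemokine induced by type II interferon, by 1.36 and 1.30. Ifitm2 rose by 0.84 and Ifitm1 by 0.58 under the knockout label, both relatives of Ifitm3. Of 5 interferon receptor genes none was lower and 1 was higher under each label, near the 16.6% and 16.8% of all tested genes that were higher. Of 19 pathogen sensors and adaptors 5 were lower and 3 higher in wild type, and 8 and 3 under the knockout label, and of 14 negative regulators 3 were lower in wild type and 2 higher under the knockout label. The interferon ligand genes were not analysed here.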

How the data were processed

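Poly(A) RNA of whole liver was sequenced as single 50-base reads with an unstranded kit, per the labels' protocols, and the submitters' processing notes name Novoalign and GRCm38. The authors deposited 1 FPKM value per gene and library. What counted the reads is not stated. For 24 libraries the treatment tag differs from the title, and groups follow the title. Whole reads were recovered from the FPKM steps for 15040 of 15041 genes (99.99%, relative tolerance 1e-11), so 1 read in 1000 bases is worth 0.0506 to 0.104 FPKM. They served for scale factors (trimmed mean of M values, 0.807 to 1.3) and for the voom alternative.

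Values entered limma 3.58.1 (R 4.3.3) as log2(FPKM × scale factor + 0.5) with 16 group means over 48 libraries, a trended prior and Benjamini-Hochberg adjustment over 13765 genes. Time was tested with moderated F tests. The fits were tested on simulated data. Nothing in the labels says more of the mice than 3 per group, so p-values measure the spread between these livers. Replicate livers of every group differed beyond sampling noise, at a chi-square of 9.79 to 259.8 for each degree of freedom. The 41 genes and all gene lists were chosen with earlier results of these data known. A list of receptor kinases and the factors they activate is not reported here. Genes given in full were 8 set by name and the 4 with the lowest adjusted p in each of 4 comparisons. Gene positions are from GENCODE M21 on GRCm38. Alternatives were other pseudocounts, no filter, other scalings, voom, a replicate block and leaving out each liver. Leaving out the high livers of 6pm, or all of 6pm, was chosen after seeing the data.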

Additional observations from a re-analysis of the deposited data

Results flagged for a closer look

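The ethanol effect on Oas3 was called in the test of the difference between labels, at -0.391 (knockout label minus wild type), on 4 to 111 reads per liver. Oas3 passed the filter on low values mainly through the knockout-labelled controls. Its call was lost with a pseudocount of 0.1 FPKM, with voom and without the 6pm livers. It was also lost in 17 of the 48 fits that left out 1 liver. The ethanol effect changed with collection time by moderated F test in wild type for Cmpk2 (adjusted p = 0.00592), Rsad2 (adjusted p = 0.028) and Iigp1 (adjusted p = 0.0441). Under the knockout label it did so for Usp18 (adjusted p = 0.00239), Ifit1 (adjusted p = 0.00775), Cmpk2 (adjusted p = 0.0123), Ifi44 (adjusted p = 0.0139), Rsad2 (adjusted p = 0.0163) and Gbp7 (adjusted p = 0.0372). All are limma values with Benjamini-Hochberg adjustment over all tested genes. The test of time dependence called 3 of 41 genes in wild type, where 10.6% of all tested genes were called. Under the knockout label it called 6 of 41, where 10.9% of all tested genes were called. Leaving out 1 liver, these counts ranged over 1 to 4 in wild type and 4 to 14 under the knockout label. Every mouse was gavaged at the same hour, so clock time cannot be told apart from hours since the gavage in these results by time.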

How the results depend on the processing

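Of 181 calls of single genes in 13 contrasts, none changed direction under any alternative run, but some were lost. With library totals alone 17 were lost, and with voom 7. Without the 6pm livers 18 of the calls averaged over the times were lost and 54 kept. Over all fits that left out 1 liver, 387 calls were lost and 8301 kept. The replicate block left 28 and 29 genes called lower with ethanol in wild type and under the knockout label, against 28 and 29 without it, and moved no count by over 1.5 times. Same-numbered livers did not deviate together (median correlation -0.00292, against -0.0012 for other numbers). With library totals alone the counts became 12 for the difference between labels (main 1), 17 for the labels in controls (11), 11 for wild type at 6pm (19), 0 for wild type at midnight (3), and 15 and 31 for the knockout label at 6am and noon (8 and 18). The calls over all 13765 tested genes moved as well. They became 3828 for the difference (main 1098) and 4947 for the labels in controls (4457). For wild type at 6pm and midnight they became 2323 and 1409 (2532 and 1328). For the knockout label at 6am and noon they became 1896 and 6468 (1142 and 3079). The difference between labels called 0 genes with a pseudocount of 0.1 FPKM and 0 with voom, and wild type at midnight called 1 with no filter. Without both high knockout-labelled control livers of 6pm the counts were 0 for the difference, 5 for wild type at midnight, 8 for the knockout label at 6pm (27), 2 and 1 for time of day in wild-type and knockout-labelled controls (1 and 9), and 3 for time dependence under the knockout label (6). Without the 6pm livers the difference called 2 genes, Iigp1 and Lgals3bp, and the labels in controls 7. The causes were not tested. Leaving out each liver in turn, the counts ranged over 24 to 31 in wild type and 29 to 32 under the knockout label, 0 to 5 for the difference, 9 to 13 and 2 to 4 for the labels in controls and ethanol livers. By time they ranged over 9 to 19 (6am), 5 to 8 (noon), 8 to 21 (6pm) and 0 to 5 (midnight) in wild type, and 2 to 9, 11 to 20, 23 to 30 and 1 to 17 under the knockout label. Time of day ranged over 0 to 2, 4 to 13, 1 to 20 and 4 to 9 in wild-type controls and ethanol livers and knockout-labelled controls and ethanol livers, and time dependence over 1 to 4 in wild type and 4 to 14 under the knockout label. The knockout-label count at midnight was 1 without replicate 2 of its ethanol livers and 17 without replicate 0. Low genes such as Oas3 rest on few reads, which limits their precision.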
